A study of Homo sapiens with 12 samples.

Results

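The 9 genes described here are 2 ligands (JAG1, JAG2), 3 receptors (NOTCH1, NOTCH2, NOTCH3) and 4 target genes (HES1, HES4, HEY1, NRARP) of the Notch pathway. They were taken by symbol from a table of 56634 gene symbols counted in HCT116, an established human colorectal carcinoma cell line. RNA sequencing libraries were made from 4 groups of 3 replicates that the labels call biological, all from this 1 line. The TNF plus Senexin B group was given Senexin B at 1 µM for 3 hours, with TNF-alpha (TNF) at 10 ng/mL added for the last 2 of them. In the TNF group, 1 hour in 0.1% DMSO came before the same TNF treatment. The Senexin B group had the inhibitor for 3 hours and no TNF. The control group had 0.1% DMSO for 3 hours and neither agent. TNF is an inflammatory cytokine, and Senexin B blocks CDK8 and CDK19, which are Mediator-associated kinases. The comparisons asked what each agent, and both, did to transcript levels.

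Notch signalling passes between touching cells. A ligand on one cell pulls on a NOTCH receptor on its neighbour, ADAM and gamma-secretase proteases cut the receptor, and the freed intracellular domain enters the nucleus, where it joins RBPJ and MAML proteins to switch target genes on. HES and HEY proteins are repressors made from such targets, and NRARP dampens the signal by acting on the intracellular domain. In the intestine the pathway is known for keeping crypt cells dividing and for steering progenitors towards the absorptive fate. CDK8 with cyclin C is known to phosphorylate the intracellular domain and so to mark it for destruction.

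In GENCODE 29 on GRCh38 these are protein-coding genes. The ligand genes lie on the minus strand, JAG1 (ENSG00000101384.12) at chr20:10637684-10673999 and JAG2 (ENSG00000184916.8) at chr14:105140981-105168824. The receptor genes are also on the minus strand, NOTCH1 (ENSG00000148400.10) at chr9:136494433-136545786, NOTCH2 (ENSG00000134250.19) at chr1:119911553-120069626 and NOTCH3 (ENSG00000074181.8) at chr19:15159038-15200981. Of the targets, HES1 (ENSG00000114315.3) is on the plus strand at chr3:194136145-194138732, while HES4 (ENSG00000188290.10) at chr1:998962-1000172 and NRARP (ENSG00000198435.3) at chr9:137300482-137302251 are on the minus strand. HEY1 has the identifier ENSG00000164683.16. Counts are given per gene symbol, so no value belongs to 1 exon or transcript.

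Sequence upstream of the genes was taken from RefSeq (GRCh38.p14), in windows of 250 bases before the RefSeq start. Windows were found for 8 of the 9 genes, and none is shown for HEY1. The HES1 and JAG1 windows are printed because these genes had the largest called decrease and the largest called increase among the 9, together with a 30-base stretch before the RefSeq start of HES4, another HES family gene. RefSeq and GENCODE 29 do not start every gene at the same base. The RefSeq start lies 75 bases inside the GENCODE gene for HES4, 48 for JAG2 and 3 for HES1, is the same base for JAG1, and lies 14 to 262 bases before the GENCODE start for the other 4 genes. Capitals mark TGGGAA, the core letters read by RBPJ, and CACNAG, the N-box that HES repressors bind. Both were searched on both strands, so that CTTGTG is an N-box on the opposite strand.
HES1 (chr3:194135898-194136147, plus strand): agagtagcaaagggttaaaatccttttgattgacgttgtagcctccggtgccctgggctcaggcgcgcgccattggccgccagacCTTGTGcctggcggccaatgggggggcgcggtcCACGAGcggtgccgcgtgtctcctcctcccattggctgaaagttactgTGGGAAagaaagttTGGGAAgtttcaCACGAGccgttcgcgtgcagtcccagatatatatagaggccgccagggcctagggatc
JAG1 (chr20:10674000-10674249, minus strand): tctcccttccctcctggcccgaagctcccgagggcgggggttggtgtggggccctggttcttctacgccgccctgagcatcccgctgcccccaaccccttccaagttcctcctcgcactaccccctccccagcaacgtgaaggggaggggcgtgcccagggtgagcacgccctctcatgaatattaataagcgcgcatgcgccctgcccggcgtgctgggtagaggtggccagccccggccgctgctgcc
HES4 (chr1:1000156-1000185, minus strand): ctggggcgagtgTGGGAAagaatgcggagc

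The HES1 window held 2 TGGGAA matches in the same orientation, at 84 to 79 and at 70 to 65 bases before the start. It also held 3 N-box matches, and none of the matches shared bases. HES4 had 1 TGGGAA match, at 76 to 71 bases before its RefSeq start, of which 5 of 6 bases lie inside the GENCODE 29 gene. NOTCH3 had 1 N-box. The consensus of NF-kB, the transcription factor that TNF activates, matched once upstream of JAG2 and once upstream of NOTCH2. No window held CTTTGA, the letters read by the TCF/LEF factors of the Wnt pathway. JAG1, NOTCH1 and NRARP matched none of the 4 motifs. Among 35114 windows of the same length, 20.85% held TGGGAA, 32.04% CACNAG, 11.21% CTTTGA and 9.962% the NF-kB consensus. A match describes letters in the window and does not show binding.

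**Figure D1:**
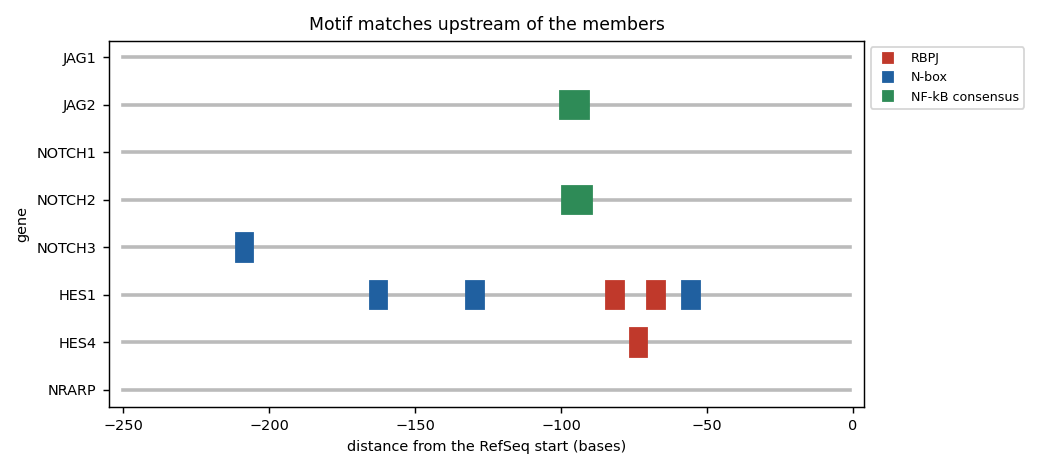
Motif matches in the 250 bases before the RefSeq start of 8 of the 9 genes, with distance from the start in bases on the x axis and genes on the y axis. Blocks are matches to TGGGAA (RBPJ), CACNAG (N-box) or the NF-kB consensus, and HES1 carries 5 of them.

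Total counts ran from 5835226 to 9281176 per library, so that 1 CPM (a count scaled to the library total, with TMM factors) was worth 5.77 to 9.34 counts. Of 12 epithelial markers 11 passed the filter on low counts and VIL1 stood at 0, with summed levels of 4318 to 5072 CPM. Endothelial markers (0 of 6 passed) summed to at most 1.59 CPM and blood cell markers (0 of 7) to at most 0.520 CPM. Of 8 fibroblast markers 1 passed, and they summed to 7.46 to 11.2 CPM. A set of 6 genes known to rise with TNF summed to 908 to 919 CPM in TNF plus Senexin B, 1100 to 1174 CPM in TNF, 104 to 108 CPM in Senexin B and 110.2 to 113 CPM in control libraries. The shallowest library, TNF replicate 1, differed from the other TNF libraries by GC content: over genes, which are not independent replicates, the difference and the GC content of the transcript had a Spearman's rho of -0.53. The rho was 0.37 and 0.33 for TNF replicates 2 and 3, -0.17 for control replicate 1 and 0.24 for control replicate 3, each against the rest of its group. Replicate pairs that hold TNF replicate 1 or control replicate 1 differed most in their counts (chi-square per degree of freedom 2.45 to 2.76, against 1.21 to 1.71 for the other pairs). Transcript GC content was 63.1% for NOTCH3, 62.9% for NOTCH1, 64.0% for JAG2, 67.3% for NRARP and 73.9% for HES4, and from 47.3% to 49.9% for JAG1, NOTCH2, HES1 and HEY1. The part of these libraries and of GC content in the results was not tested as a cause, but each member was also fitted without both libraries and with GC-corrected offsets.

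To compare levels between genes, counts were divided by exon length and given as TPM, which sum to the same total in every library. HES4 was the highest member in every group, at 83.8 ± 6.93 TPM in TNF plus Senexin B, 58.6 ± 11.9 in TNF, 76.3 ± 7.49 in Senexin B and 71.6 ± 5.96 in control (SD, n = 3 each). In TNF its libraries overlapped those of JAG1. Below HES4, the controls ran in the order JAG2 (53.8 ± 0.542 TPM), JAG1 (36.0 ± 1.56), NOTCH2 (30.9 ± 2.94), HES1 (27.8 ± 2.60), NOTCH1 (21.9 ± 2.24), NRARP (18.8 ± 2.41), NOTCH3 (7.10 ± 1.44) and HEY1 (0.562 ± 0.254). Neighbours whose control libraries overlapped were NOTCH2 with HES1, and NOTCH1 with NRARP. In TNF plus Senexin B, JAG1 stood at 74.5 ± 3.69 TPM and JAG2 at 44.0 ± 3.14, followed by NOTCH2 at 34.7 ± 2.95, HES1 at 18.0 ± 0.305, NRARP at 17.5 ± 2.96, NOTCH1 at 16.1 ± 1.52, NOTCH3 at 6.00 ± 0.280 and HEY1 at 0.453 ± 0.219. There HES1 overlapped NRARP, and NRARP overlapped NOTCH1. The place of NOTCH2 depends on the length used: with the longest coding transcript (11389 bases) in place of all exons (16074 bases) its level became 44.5 TPM in TNF plus Senexin B and 39.7 TPM in control, above JAG2 in TNF plus Senexin B and above JAG1 in control.

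Among the Notch genes, TNF and Senexin B each raised JAG1, and the level was highest with both. HES1 and JAG2 fell with TNF, whether or not Senexin B was present, and NOTCH2 rose slightly. HES4 was higher with Senexin B among TNF-treated cells. A gene was called where the adjusted p of edgeR's quasi-likelihood test, corrected over the 13084 tested genes, was under 0.05; 8 of the 9 members were tested and HEY1 was not. In TNF against control 4 of the 8 were called, 2 higher and 2 lower, where 10.0% of all tested genes were called, 5.81% higher and 4.20% lower. In Senexin B against control 1 was called, higher, against 3.04% of all genes, 1.53% higher and 1.51% lower. In TNF plus Senexin B against TNF 2 were called, both higher, against 5.45%, 2.90% higher and 2.55% lower. For TNF added to Senexin B, against Senexin B alone, 4 were called, 2 higher and 2 lower, against 5.95%, 4.27% higher and 1.68% lower. In TNF plus Senexin B against control 5 were called, 2 higher and 3 lower, against 11.2%, 6.09% higher and 5.08% lower. The comparisons share libraries with each other, so they are not separate evidence.

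Counted by libraries alone, the groups did not overlap for 4 of the 8 tested members in TNF against control, where this held for 24.3% of all tested genes. The same count was 3 in Senexin B against control, against 20%, and 2 in TNF plus Senexin B against TNF, against 22.6%. With both agents it was 5 when set against Senexin B alone, against 21.9%, and 5 in TNF plus Senexin B against control, against 26.6%. The median log2 fold change of the 8 was -0.24 for TNF, 0.02 for Senexin B, 0.08 for Senexin B on top of TNF, -0.10 for TNF on top of Senexin B and -0.13 for both against control. The median over all tested genes was within 0.01 of 0 in each of these comparisons. Several values behind the TNF median depended on the fit. Without TNF replicate 1 and control replicate 1, JAG2 was -0.23, NOTCH1 -0.09, NOTCH3 -0.14, HES4 -0.06 and NRARP -0.09. HES1 (-0.82), JAG1 (0.49) and NOTCH2 (0.32) were larger in size there. With GC-corrected offsets JAG2 was -0.14, HES4 0.06 and NRARP 0.04. In bulk RNA, fewer cells making a transcript and less transcript per cell cannot be told apart.

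**Figure D2:**
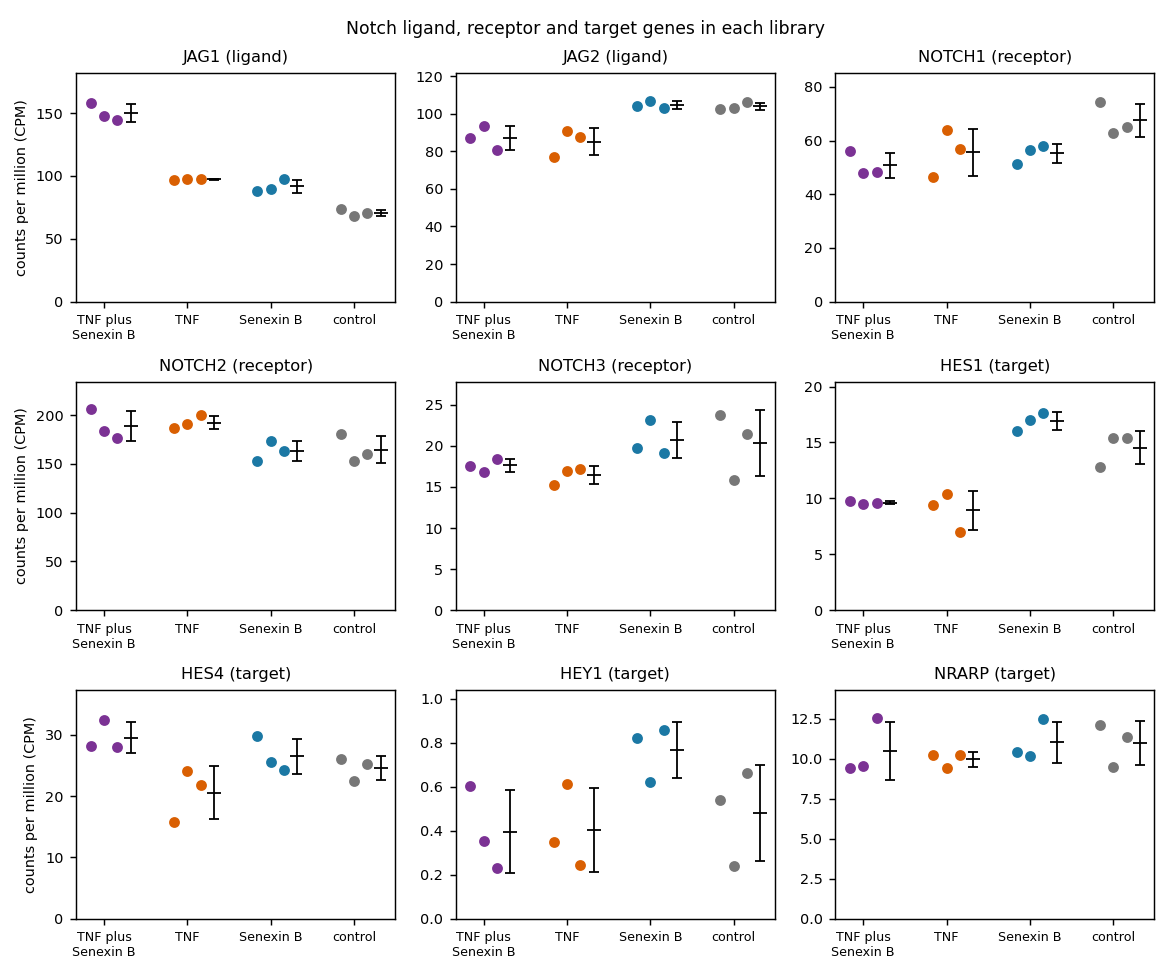
CPM of each of the 9 genes (y axis, from 0) in the 3 libraries of each group (x axis); points are libraries, and bars beside them are the mean and SD (n = 3). The JAG1 libraries of the TNF plus Senexin B group lie from 145 to 158 CPM, above every other library.

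JAG1, the ligand Jagged 1, gave the clearest response. It had 158, 148 and 145 CPM in TNF plus Senexin B replicates 1, 2 and 3, and 96.9, 97.6 and 97.8 CPM in TNF. It had 88.3, 89.4 and 97.7 CPM in Senexin B and 73.3, 68.5 and 70.3 CPM in control. Every TNF plus Senexin B library was above every other library, and every library with either agent was above every control. TNF raised JAG1 1.38-fold over control (log2 fold change 0.47 ± 0.06, SE; edgeR adjusted p = 4.65e-09), and Senexin B raised it 1.30-fold (0.38 ± 0.06; edgeR adjusted p = 3.13e-06). With both agents it was 2.12-fold above control (1.09 ± 0.05; edgeR adjusted p = 1.33e-24). Senexin B on top of TNF gave a 1.54-fold rise (0.62 ± 0.05; edgeR adjusted p = 1.35e-13) and TNF on top of Senexin B a 1.63-fold rise (0.71 ± 0.05; edgeR adjusted p = 3.65e-17). JAG1 kept its call in all 22 alternative fits in each of these 5 comparisons. An antisense gene, AL050403.2, overlaps JAG1 in GENCODE 29, and the kit does not mark the strand, so reads of the pair cannot be told apart.

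Whether the Senexin B effect on JAG1 was larger with TNF than without it was tested as an interaction. The difference of the 2 log2 fold changes was 0.24 ± 0.08, with an unadjusted p of 0.00286 and an edgeR adjusted p of 0.657, so it was not called. HES4 had 0.39 ± 0.15 (unadjusted p = 0.0116, edgeR adjusted p = 0.754), which became 0.22 without TNF replicate 1 and control replicate 1 and 0.19 with GC-corrected offsets. An unadjusted p under 0.05 was found for 796 of the 13084 genes. No other member had an unadjusted p under 0.05, and 0 of 8 members were called, where 0.0459% of all tested genes were. DESeq2 called 0 of the 8 as well. An effect of Senexin B that differs between cells with and without TNF was therefore not shown for any of these genes.

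JAG2, the other Jagged ligand, moved the other way with TNF. Its level was 86.9, 93.5 and 80.9 CPM in TNF plus Senexin B and 77.0, 90.6 and 87.8 CPM in TNF. It was 104, 107 and 103 CPM in Senexin B and 103, 103 and 106 CPM in control. All 6 libraries with TNF lay below all 6 without it, and Senexin B made no called difference with or without TNF. Against control JAG2 fell by 17.6% with TNF (log2 fold change -0.28 ± 0.06; edgeR adjusted p = 3.84e-04) and fell by 16.2% with both agents (-0.26 ± 0.06; edgeR adjusted p = 7.25e-04). Against Senexin B alone it fell by 16.8% with both (-0.27 ± 0.06; edgeR adjusted p = 5.80e-04). With GC-corrected offsets the TNF difference was -0.14 and the call was lost (edgeR adjusted p = 0.0637), while without TNF replicate 1 and control replicate 1 it was -0.23 and was kept (edgeR adjusted p = 0.00509). AL512356.1 overlaps JAG2 on the same strand, so that reads of the pair could not be separated. For Senexin B against control the interval of the JAG2 fold, 0.933 to 1.09, left room only for small changes.

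The ratio of the ligands changed with each agent. With TNF the ligands moved in opposite directions, while with Senexin B only JAG1 had a called difference. JAG1 over JAG2, per transcript length, was 1.70 ± 0.127 in TNF plus Senexin B, 1.13 ± 0.0944 in TNF, 0.862 ± 0.0596 in Senexin B and 0.669 ± 0.0283 in control (SD, n = 3 each). The libraries of the 4 groups did not overlap: the lowest TNF plus Senexin B ratio was 1.55 and the highest TNF ratio 1.24, the lowest TNF ratio was 1.06 and the highest Senexin B ratio 0.930, and the highest control ratio was 0.701. JAG2 was the higher ligand in cells without TNF and JAG1 in cells with it. The ratio was not corrected for transcript GC content, which was 49.6% for JAG1 and 64.0% for JAG2. TNF replicate 1, which differed by GC content from the other TNF libraries, gave the highest TNF ratio, 1.24.

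NOTCH1, a receptor broadly used in the gut, was lower in treated cells, and the difference was called with both agents. It had 56.0, 47.9 and 48.3 CPM in TNF plus Senexin B, 46.5, 63.9 and 56.7 CPM in TNF, 51.2, 56.5 and 57.8 CPM in Senexin B and 74.5, 62.9 and 65.0 CPM in control. Every TNF plus Senexin B library and every Senexin B library lay below every control, and TNF replicate 2 lay within the controls. NOTCH1 fell by 24.6% with both agents against control (log2 fold change -0.41 ± 0.09; edgeR adjusted p = 0.00117), in all 22 alternative fits too. The single agents gave -0.25 ± 0.09 for TNF (edgeR adjusted p = 0.0588) and -0.28 ± 0.08 for Senexin B (edgeR adjusted p = 0.0635), which missed the threshold. The Senexin B difference passed in 8 of 22 alternatives, among them the fit of only the groups compared (edgeR adjusted p = 0.00211) and GC-corrected offsets (edgeR adjusted p = 0.00273). The TNF difference passed in 5 of 22, and without TNF replicate 1 and control replicate 1 it was -0.09. Both agents against TNF gave -0.15 ± 0.09 (edgeR adjusted p = 0.374), and -0.25 with GC-corrected offsets, which passed (edgeR adjusted p = 0.0359). The antisense gene AL592301.1 overlaps NOTCH1, and its reads could not be separated here.

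NOTCH2, another receptor, was slightly higher in cells with TNF. Its level was 206, 184 and 177 CPM in TNF plus Senexin B and 187, 190.3 and 200.0 CPM in TNF. It was 153, 173 and 163 CPM in Senexin B and 180.2, 153 and 159.8 CPM in control. Every TNF library was above every control, and every TNF plus Senexin B library above every Senexin B library, but control replicate 1 lay within the TNF plus Senexin B group. The rise was 1.17-fold for TNF against control (log2 fold change 0.23 ± 0.06; edgeR adjusted p = 0.00648), 1.16-fold for both agents against Senexin B (0.21 ± 0.06; edgeR adjusted p = 0.0165) and 1.15-fold for both against control (0.20 ± 0.06; edgeR adjusted p = 0.0144). These calls were less stable, kept in 19, 16 and 15 of 22 alternatives. The TNF call was lost with GC-corrected offsets (0.23; edgeR adjusted p = 0.0766), with these offsets and the replicate number as a block (0.23; edgeR adjusted p = 0.129), and without TNF replicate 1 (0.25; edgeR adjusted p = 0.0598). Leaving out TNF plus Senexin B replicate 1 gave 0.14 against Senexin B and 0.14 against control (edgeR adjusted p = 0.187 and 0.145). NOTCH2NL, a partial copy of NOTCH2, had at most 5 counts in a library, and how reads shared by the pair were counted is not given in the sources used here.

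NOTCH3, the third receptor, was the lowest of the 3 and was called in no comparison. It had 17.6, 16.8 and 18.4 CPM in TNF plus Senexin B, 15.3, 16.9 and 17.2 CPM in TNF, 19.7, 23.2 and 19.2 CPM in Senexin B and 23.7, 15.9 and 21.4 CPM in control. Control replicate 2 lay among the TNF libraries. The difference for TNF against control was -0.29 ± 0.12 (edgeR adjusted p = 0.107), -0.44 and called without control replicate 2 (edgeR adjusted p = 0.00863), and -0.14 without TNF replicate 1 and control replicate 1 (edgeR adjusted p = 0.643). Likewise both agents against control gave -0.20 ± 0.11 (edgeR adjusted p = 0.289), -0.35 without control replicate 2 (edgeR adjusted p = 0.0349), and -0.09 without TNF replicate 1 and control replicate 1 (edgeR adjusted p = 0.722). Summed over the 3 receptors, the level was 56.8 ± 4.43 TPM in TNF plus Senexin B, 58.9 ± 3.52 in TNF, 55.3 ± 3.83 in Senexin B and 60.0 ± 6.43 in control, and all groups overlapped. NOTCH2 made up 61.1 ± 0.933% of that sum in TNF plus Senexin B, 60.4 ± 2.96% in TNF, 55.0 ± 0.284% in Senexin B and 51.6 ± 0.844% in control. Every library with TNF had a larger NOTCH2 share than every library without it. The sum and the share used all exons of NOTCH2, and both would be larger with its longest coding transcript. Neither was corrected for GC content, which was lower for NOTCH2 than for NOTCH1 and NOTCH3.

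HES1, a repressor gene of the HES family, showed the largest called decrease among the members. It had 9.76, 9.52 and 9.57 CPM in TNF plus Senexin B and 9.36, 10.4 and 6.96 CPM in TNF. It had 16.1, 17.0 and 17.7 CPM in Senexin B and 12.8, 15.4 and 15.4 CPM in control. All 6 libraries with TNF lay below all 6 without it, and every Senexin B library lay above every control. HES1 fell by 39.2% with TNF against control (log2 fold change -0.72 ± 0.14; edgeR adjusted p = 7.66e-05), fell by 43.1% with both agents against Senexin B (-0.81 ± 0.13; edgeR adjusted p = 9.88e-07) and fell by 34.1% with both against control (-0.60 ± 0.13; edgeR adjusted p = 4.09e-04). All 3 calls held in the 22 alternative fits. The difference for Senexin B against control was 0.21 ± 0.11 and was not called (edgeR adjusted p = 0.394), with a 95% interval of the fold from 0.989 to 1.36. Counts behind these values were 54 to 165 per library.

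HES4, a related repressor gene, stood at 28.2, 32.5 and 28.0 CPM in TNF plus Senexin B, 15.8, 24.0 and 21.9 CPM in TNF, 29.8, 25.5 and 24.3 CPM in Senexin B and 26.1, 22.4 and 25.3 CPM in control. TNF replicate 1 was the lowest of the 12, and every TNF plus Senexin B library was above every TNF and every control library. Senexin B on top of TNF raised HES4 1.41-fold (log2 fold change 0.49 ± 0.11; edgeR adjusted p = 0.00174). The size of this rise differed between fits. Without TNF replicate 1 and control replicate 1 it was 0.37 and was called (edgeR adjusted p = 0.0162), and with GC-corrected offsets it was 0.29 and was not (edgeR adjusted p = 0.0513). TNF against control gave -0.23 ± 0.11 (edgeR adjusted p = 0.203), 0.06 with GC-corrected offsets and -0.06 without the 2 libraries. Both agents against control gave 0.27 ± 0.10 (edgeR adjusted p = 0.0806), which passed in 6 of 22 alternatives.

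The other targets were less informative. NRARP, the feedback inhibitor, had 9.40, 9.52 and 12.6 CPM in TNF plus Senexin B, 10.2, 9.44 and 10.3 CPM in TNF, 10.4, 10.2 and 12.5 CPM in Senexin B and 12.1, 9.49 and 11.4 CPM in control. All 4 groups overlapped and no comparison was called, here or in any alternative. The difference for TNF against control was -0.14 ± 0.14, with a 95% interval of the fold from 0.745 to 1.11. HEY1, a repressor gene of the HEY family, had 5, 3 and 2 counts in TNF plus Senexin B, 2, 5 and 2 in TNF, 7, 5 and 8 in Senexin B and 4, 2 and 6 in control. These counts did not pass the filter, and their summed counts, scaled by library size, had a ratio of 0.814 for both agents against control (95% interval 0.315 to 2.06) and 1.60 for Senexin B against control (0.745 to 3.59), covering counting error only. For both agents against Senexin B the ratio was 0.509 (0.213 to 1.14). The counts were too few to tell whether HEY1 differed between groups.

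**Figure D3:**
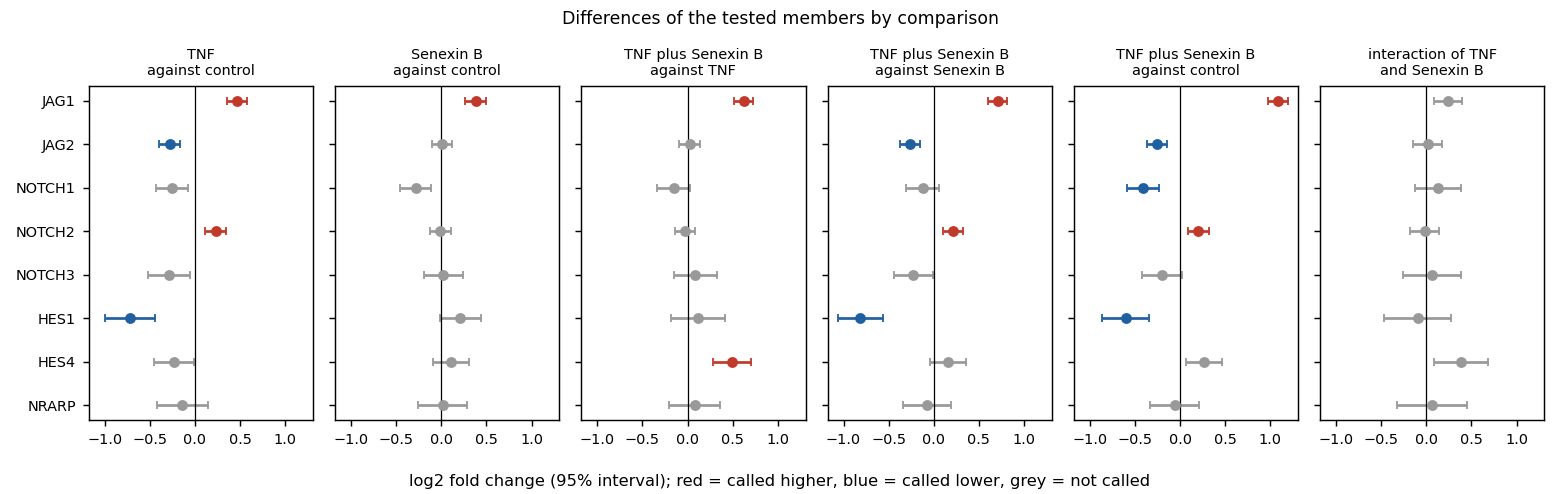
Log2 fold change (x axis) of the 8 tested genes (y axis) in the 5 comparisons and in the interaction, with 95% intervals; red is called higher, blue called lower and grey not called. JAG1 is called higher in all 5 comparisons, HES1 is called lower wherever TNF-treated cells are set against cells without TNF, and no gene is called in the interaction.

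**Figure D4:**
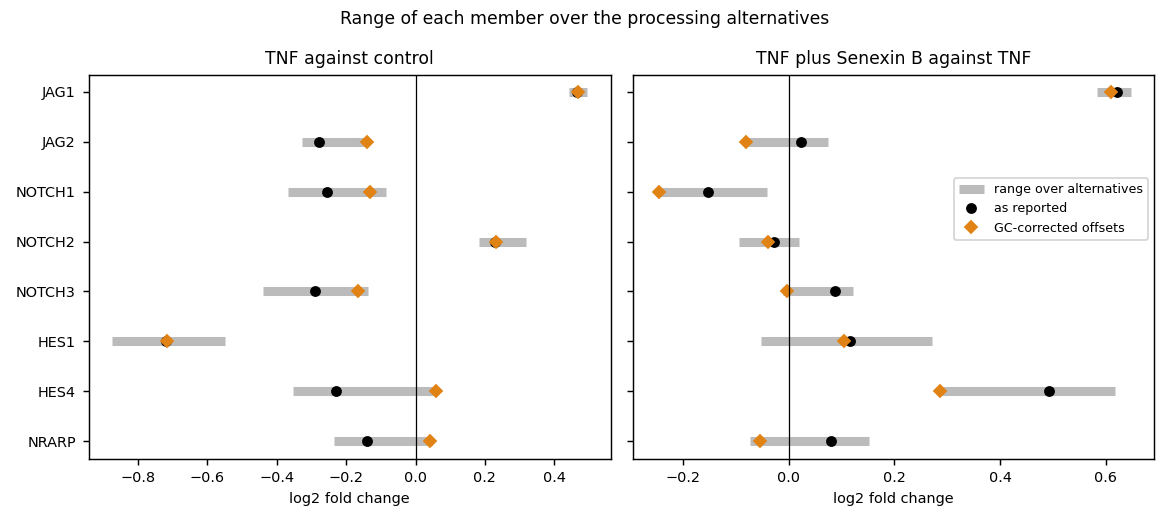
Log2 fold change (x axis) of the 8 tested genes (y axis) as reported (black), with GC-corrected offsets (orange) and over all 22 alternatives (grey range), in the TNF against control comparison (left) and that of TNF plus Senexin B with TNF (right). JAG1 and HES1 keep their TNF difference with the GC-corrected offsets, whereas that of JAG2 shrinks to -0.14 and that of HES4 turns to 0.06.

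Another 68 genes of the pathway were listed by role from textbook knowledge, and 55 of them were tested. In TNF against control 3 were called higher and 5 lower, with a median log2 fold change of -0.05. In Senexin B against control 1 was called higher and 1 lower (median -0.03). With TNF plus Senexin B, 4 were called higher and 0 lower against TNF (median -0.01), 5 higher and 3 lower against Senexin B (median -0.02), and 6 higher and 4 lower against control (median -0.04). In the same order, 8, 2, 4, 8 and 10 of the 55 were called, where 10.0%, 3.04%, 5.45%, 5.95% and 11.2% of all tested genes were. None was called in the interaction, where 5 of the 55 had an unadjusted p under 0.05, against the 796 of 13084 given above, and DESeq2 also called none. NOTCH4, the fourth receptor, had 3 to 8 counts in a library, the ligand DLL4 had 2 to 14, and HES5, HES3, HELT and DLK1 stood at 0 in all 12 libraries.

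Among enzymes that act on the receptor before it meets its ligand, LFNG and FURIN were called. LFNG, a Fringe glycosyltransferase that tunes which ligands a NOTCH receptor answers to, had 4.46, 3.17 and 3.11 CPM in TNF plus Senexin B, 2.60, 3.92 and 6.60 CPM in TNF, 7.62, 6.70 and 6.53 CPM in Senexin B and 9.57, 8.54 and 8.51 CPM in control. It fell with TNF against control (log2 fold change -0.95 ± 0.20; edgeR adjusted p = 2.34e-04), with both agents against Senexin B (-0.95 ± 0.21; edgeR adjusted p = 6.66e-04) and with both against control (-1.30 ± 0.20; edgeR adjusted p = 6.27e-07). Every library of both TNF-treated groups was below every control library, and these calls held in all 22 alternatives. FURIN, the protease that makes the first cut in the receptor, averaged 83.1 ± 3.62 CPM in TNF plus Senexin B, 69.6 ± 6.26 in TNF, 83.2 ± 3.37 in Senexin B and 73.3 ± 3.00 in control (SD, n = 3 each). It was higher with both agents than with TNF, by a log2 fold change of 0.25 ± 0.06 (edgeR adjusted p = 0.00745). That call was lost with GC-corrected offsets and without TNF replicate 1 or TNF plus Senexin B replicate 3. FURIN was also called higher with both agents against control, at 0.18 ± 0.06 (edgeR adjusted p = 0.0382), which was lost in 7 of 22 alternatives. ADAM17, a protease that can cut the receptor outside the membrane, rose with both agents against Senexin B (0.30 ± 0.06, edgeR adjusted p = 5.64e-04). It had 60.0, 63.1 and 62.6 CPM in TNF plus Senexin B and 56.9, 58.7 and 55.3 CPM in TNF. It had 51.3, 50.2 and 49.9 CPM in Senexin B and 54.8, 56.8 and 53.0 CPM in control. Every Senexin B library lay below every control, and ADAM17 was called in no other comparison.

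Of the genes for ligand endocytosis and receptor trafficking, EPN1, NEURL1B and ITCH were called. EPN1, an epsin that helps draw ligands into the cell, averaged 135 ± 7.30 CPM in TNF plus Senexin B, 113 ± 12.7 in TNF, 141 ± 2.42 in Senexin B and 132 ± 2.70 in control. It fell with TNF (log2 fold change -0.22 ± 0.06; edgeR adjusted p = 0.00495; lost without TNF replicate 1) and was higher with Senexin B on top of TNF (0.25 ± 0.06; edgeR adjusted p = 0.00244). NEURL1B, a ubiquitin ligase of the family that acts on ligands, averaged 9.72 ± 1.10 CPM in TNF plus Senexin B, 8.22 ± 0.813 in TNF, 11.5 ± 1.63 in Senexin B and 12.7 ± 1.70 in control, and fell with TNF against control (-0.60 ± 0.15; edgeR adjusted p = 0.00266; lost without TNF replicate 1 and control replicate 1 together). ITCH, a ubiquitin ligase that can target NOTCH, rose with TNF (0.21 ± 0.06; edgeR adjusted p = 0.0261; lost in 9 of 22 alternatives) and with both agents against control (0.21 ± 0.06; edgeR adjusted p = 0.0140; lost in 4 of 22).

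Among deltex ligases and co-regulators, 5 genes were called. DTX3L, a deltex family ligase also known for its role with PARP9 in interferon responses, had 29.4, 29.3 and 28.4 CPM in TNF plus Senexin B, 39.4, 31.0 and 33.5 in TNF, 19.2, 18.5 and 19.7 in Senexin B and 22.5, 23.1 and 18.5 in control. It rose with TNF against control by 0.69 ± 0.09 on the log2 scale (edgeR adjusted p = 8.63e-08). DTX3L was also called higher with both agents against Senexin B (0.58 to 0.62 over the alternatives) and against control (0.35 to 0.51). All 22 alternatives kept these 3 calls. Every TNF plus Senexin B library lay below every TNF library, and that difference was not called. DTX4 fell with TNF against control (-0.47 ± 0.14; edgeR adjusted p = 0.0158; lost in 4 of 22 alternatives) and with both agents against control (-0.67 ± 0.14; edgeR adjusted p = 1.57e-04). TLE3, a Groucho co-repressor that HES proteins recruit, followed Senexin B: it averaged 62.9 ± 1.07 CPM in TNF plus Senexin B, 48.0 ± 2.60 in TNF, 66.2 ± 3.26 in Senexin B and 50.6 ± 2.42 in control. Every TLE3 library with Senexin B was above every library without it (0.39 ± 0.07 with TNF and 0.38 ± 0.06 without; edgeR adjusted p = 3.18e-05 and 3.34e-05). SPEN, a co-repressor partner of RBPJ, averaged 382 ± 27.9 CPM in TNF plus Senexin B, 322 ± 17.5 in TNF, 253 ± 19.2 in Senexin B and 247 ± 36.5 in control. With both agents it rose against Senexin B (0.59 ± 0.11; edgeR adjusted p = 0.0111) and against control (0.63 ± 0.11; edgeR adjusted p = 0.00467; lost in the fit of only these groups). Every SPEN library with TNF alone was also above every control, and that difference missed the threshold (0.39 ± 0.11; edgeR adjusted p = 0.0589). CREBBP, an acetyltransferase that the NOTCH complex recruits, had 139, 125 and 125 CPM in TNF plus Senexin B, 128, 130.3 and 144 in TNF, 107, 115 and 110.4 in Senexin B and 159, 128 and 139 in control. It fell with Senexin B against control, with no overlap (-0.35 ± 0.06; edgeR adjusted p = 3.49e-04), and was higher with both agents than with Senexin B alone (0.23 ± 0.06; edgeR adjusted p = 0.0202; lost in 5 of 22 alternatives). Senexin B on top of TNF gave -0.05 ± 0.06 for CREBBP, which was not called (edgeR adjusted p = 0.731).

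In the wider HES and HEY family, BHLHE40, a repressor of the related bHLH-Orange class that many signals induce, was the one called higher. It had 67.7, 73.4 and 63.6 CPM in TNF plus Senexin B, 57.6, 53.6 and 55.7 CPM in TNF, 46.5, 51.3 and 45.6 CPM in Senexin B and 38.7, 37.9 and 46.2 CPM in control. Every TNF plus Senexin B library was above every other library, as for JAG1. BHLHE40 rose with TNF (log2 fold change 0.43 ± 0.08; edgeR adjusted p = 1.92e-05), with Senexin B on top of TNF (0.30 ± 0.07; edgeR adjusted p = 0.00372; lost without TNF plus Senexin B replicate 2) and with both against control (0.73 ± 0.07; edgeR adjusted p = 2.22e-12). HES6, known to counteract HES1, averaged 35.7 ± 1.06 CPM in TNF plus Senexin B, 31.6 ± 4.67 in TNF, 39.7 ± 1.51 in Senexin B and 42.0 ± 2.92 in control. It fell with TNF (-0.39 ± 0.08; edgeR adjusted p = 5.95e-04), a call lost with GC-corrected offsets. HES6 was also called lower with both agents against control. Only 10 of 22 alternatives kept that call, with log2 fold changes from -0.29 to -0.18 over all 22. HEYL fell with both agents against control (-0.39 ± 0.11; edgeR adjusted p = 0.0123) and against Senexin B (-0.36 ± 0.11; edgeR adjusted p = 0.0364), calls that 18 and 16 of 22 alternatives kept. Transcripts of CDK8, CDK19 and CCNC, which encode the kinases that Senexin B blocks and their cyclin, were not called in any comparison. CDK8 averaged 42.8 ± 1.85 CPM in TNF plus Senexin B, 47.2 ± 5.32 in TNF, 44.9 ± 0.150 in Senexin B and 43.1 ± 2.74 in control.

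**Figure D5:**
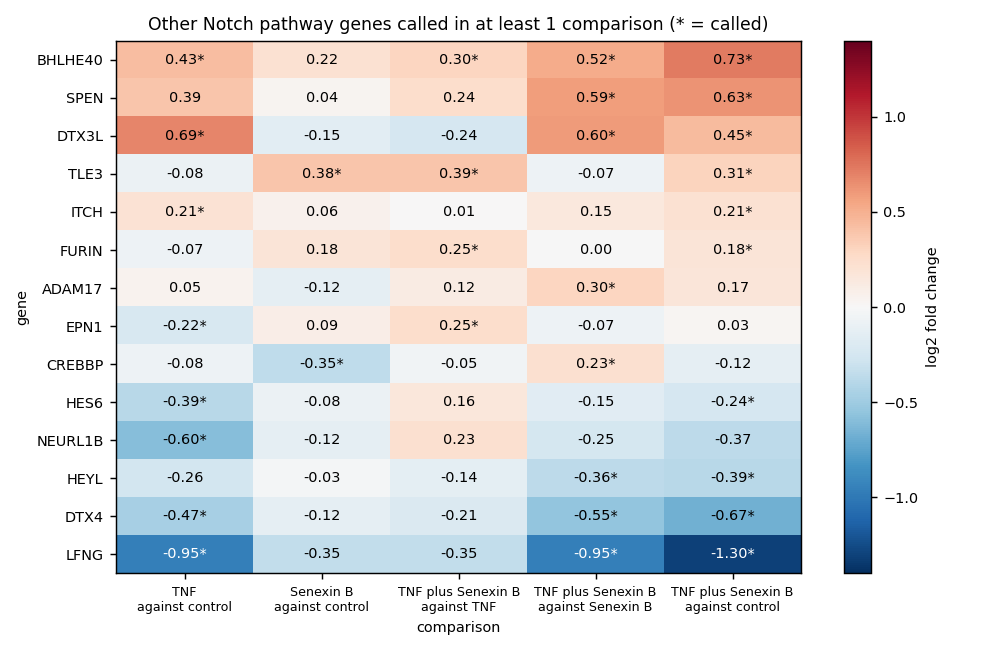
Log2 fold change (colour and number) of the 14 other Notch pathway genes called in at least 1 of 5 comparisons, with genes on the y axis and comparisons on the x axis; an asterisk marks a call. BHLHE40 is higher and LFNG lower in the 3 comparisons that set TNF-treated cells against cells without TNF.

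The tested genes whose level most resembled a member over the 12 libraries were found by Pearson's r of log2(CPM + 1), among those averaging 1 CPM or more. Both genes of a pair were read in the same 12 libraries, which differ in treatment, depth and GC composition, so these values describe a pattern only. JAG1 was most like VCL (r = 0.985), MYO1E (0.977) and THBS1 (0.974), which encode the adhesion protein vinculin, an unconventional myosin and the matrix protein thrombospondin 1. JAG2 was most like KIF18B (0.945), NTSR1 (0.941) and DDIT4L (0.940), and HES1 most like MEX3B (0.945), HOXA9 (0.936) and ADM (0.935). NOTCH1 was nearest to TADA2B (0.937), NOTCH2 to RBM12B (0.954) and NOTCH3 to TRIB2 (0.936). HES4 was nearest to LTBP4 (0.953), which stayed among its nearest genes after the group means were subtracted (0.971). NRARP had the weakest match, ZNF75A (0.856).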

How the data were processed

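The 12 libraries came from a TruSeq RNA kit on total RNA, per the labels' protocols; the kit keeps no strand information. The authors deposited unnormalized counts, 1 whole number for each symbol and library. STAR 2.4, SAMtools 1.2, featureCounts of Subread 1.4.6 and GRCh38 (hg38) are named in the submitters' processing notes. The annotation release, strand setting and rule for multi-mapped reads are not given in the sources used here. Differential expression was tested across all genes with edgeR 4.0.16 in R 4.3.3: TMM factors, filterByExpr, and robust quasi-likelihood F-tests on all 12 libraries with 1 coefficient per group. Benjamini-Hochberg adjustment covered 13084 tested genes, called under 0.05. Standard errors are Wald errors. The p-values measure the spread among these replicates of 1 cell line (biological coefficient of variation 3.62%). Replicates of a group differed by more than counting noise (chi-square per degree of freedom 1.21 to 2.76).

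TPM used GENCODE 29 exon lengths, known for 36034 symbols; using the longest coding transcript instead was chosen after seeing the data. GC-corrected offsets used a lowess curve (span 0.3) on the 12186 tested genes (93.1%) with a known GC content. Other alternatives were RLE and upper-quartile factors, DESeq2 1.42.0, no filter, a filter of 10 counts in 3 libraries, only the groups compared, each library left out, control replicate 1 and TNF replicate 1 left out together, and the replicate number as a block. Named genes were the members, each other pathway gene called in at least 1 comparison, and the tested genes most like a member. The members and lists were chosen with earlier results of these data known. The main fit was tried on simulated counts for TNF against control, Senexin B against control and both agents against TNF. The simulated counts had the same spread for all genes and no GC differences between libraries. They therefore do not cover the GC differences among these libraries, which were largest for TNF replicate 1. They also do not cover the larger count differences of replicate pairs that hold TNF replicate 1 or control replicate 1. Upstream sequences are from RefSeq.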

Additional observations from a re-analysis of the deposited data

How the results depend on the processing

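Over the alternative fits, member values kept direction and side of the threshold in 946 cases, gained a call in 26, lost one in 18 and changed sign in 58; every change of sign was in a difference that was not called, and the cause was not tested. Members called in TNF against control were 4, and 2 with GC-corrected offsets. Members called in Senexin B against control were 1, and 2 with no filter on low counts, with GC-corrected offsets, with these and the replicate block, or with only the groups compared. DESeq2 called fewer genes: 799 in TNF against control (1309 by edgeR), 403 for both agents against TNF (713), 485 against Senexin B (779) and 939 against control (1462). Genes called in Senexin B against control were 398, and 724 with the replicate block and GC-corrected offsets. The interaction had 6 called genes, and 10 with no filter. Upper-quartile factors put 43.6% of called genes higher in TNF against control, where 58.1% were higher with TMM.

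With GC-corrected offsets the log2 differences turned to 0.058 (HES4) and 0.042 (NRARP) for TNF against control, -0.0087 (JAG2) for Senexin B against control, -0.081 (JAG2), -0.0036 (NOTCH3) and -0.054 (NRARP) for both agents against TNF, and -0.073 (JAG2), -0.0094 (NOTCH3) and -0.054 (NRARP) for the interaction. With the replicate block added, the values in the same order were 0.059, 0.048, -0.0083, -0.080, -0.010, -0.057, -0.072, -0.015 and -0.056, and NRARP gave -0.0010 for Senexin B against control. NOTCH2 in Senexin B against control was 0.0035 with no filter and 0.00054 with upper-quartile factors.

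Leaving out 1 library, or control replicate 1 and TNF replicate 1 together, gave 236 to 589 called genes and 1 to 2 members for Senexin B against control, 451 to 815 genes for both agents against TNF, and 2 to 9 for the interaction. The log2 differences that changed sign ranged as follows. For Senexin B against control: JAG2 -0.0050 to 0.026, NOTCH2 -0.056 to 0.059, NOTCH3 -0.13 to 0.14, NRARP -0.092 to 0.084. For both agents against TNF: JAG2 -0.036 to 0.075, NOTCH2 -0.095 to 0.019, HES1 -0.053 to 0.27, NRARP -0.072 to 0.15. Both agents against Senexin B gave NRARP -0.23 to 0.031, and against control NRARP -0.21 to 0.012. For the interaction: JAG2 -0.046 to 0.066, NOTCH1 -0.038 to 0.24, NOTCH2 -0.11 to 0.029, NOTCH3 -0.089 to 0.21, HES1 -0.26 to 0.060, NRARP -0.088 to 0.17.

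Libraries with the same replicate number deviated together weakly: 1 of 18 same-numbered pairs had r over 0.1 (range -0.0123 to 0.103). Among the libraries of other groups, 9 of 12 libraries correlated best with one of their own number. The main fit did not use the replicate number. With the replicate block alone, more genes were called: 1470 for TNF (1309 without the block) and 479 for Senexin B (398). Both agents gave 871 against TNF (713), 827 against Senexin B (779) and 1580 against control (1462). The number of members called was the same in each. Counts of 2 to 8 per library left HEY1 untested.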

Other observations

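After the group means were subtracted, levels of some members moved together over the 12 libraries. The Pearson correlation was 0.78 between JAG2 and HES4, 0.68 between NOTCH1 and NOTCH2, 0.62 between NOTCH2 and NOTCH3, and 0.65 between JAG1 and NOTCH2. For HES1 the values with the other 7 tested members lay from -0.38 to -0.02. Before the subtraction the correlation was 0.38 between JAG2 and HES4, -0.13 between NOTCH1 and NOTCH2, -0.27 between NOTCH2 and NOTCH3, and 0.60 between JAG1 and NOTCH2. Both genes of a pair were read in the same libraries, which differ in depth and GC composition, so these values are descriptions.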
